A study of Homo sapiens with 12 samples.

Results

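The ABCC multidrug transporters are ATP-driven pumps of the cell membrane, and 6 genes of this family were examined here: ABCC1, ABCC2, ABCC3, ABCC4, ABCC5 and ABCC10. Members were taken as every array probe whose annotated gene symbol is one of the 6, and the family was selected on the low ABCC3 values of inhibited cells. The annotation pairs 8 probes with 5 of the 6 genes, and ABCC1 was not analysed here. Of these 8 probes, 6 were above background on all 3 arrays of at least 1 group, and they represent 4 genes (ABCC3, ABCC4, ABCC5 and ABCC10) among 10532 genes tested.

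Gene expression was measured on 12 Illumina bead arrays, 1 per sample, in 16HBE, an immortalised line of human bronchial epithelial cells, and 3 separate experiments each gave 1 array to each of 4 groups. Control cells carried the empty retroviral vector pQCXIP and were kept in the solvent DMSO for 4 days. The MEK inhibitor group was the same vector line given GSK1120212 at 500 nM, and the ERK inhibitor group was that line given SCH772984 at 1 µM, both for 4 days. The dominant-negative Ras group carried pQCXIP expressing Ras N17, a form that keeps normal Ras from being activated, in a stably infected line. Its labels give no solvent, no treatment time and no count of clones, so the line and the block of Ras cannot be told apart. All 4 groups thus carry the retroviral vector, and all 3 comparisons with control share the same 3 control arrays.

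ABCC proteins export organic anions from cells, many of them drugs and metabolites that the cell has first joined to glutathione, glucuronic acid or sulfate. In epithelia some of them sit on the basolateral side and hand their cargo to the blood, while ABCC2 sits on the apical side. Airway epithelium is known for ABCC1, and the family is named for the drug resistance it gives to tumour cells. Ras, MEK and ERK form a kinase cascade that carries growth factor signals to transcription factors of the ETS and AP-1 families.

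Per array, 16825 to 18295 of 47322 probes were detected, with a median of 21 or 22 beads behind a probe value, and the number of arrays limits the precision. EGR1, an immediate-early target of the cascade, fell in every inhibited group, with log2 differences of −3.20 with the MEK inhibitor, −3.24 with the ERK inhibitor and −2.70 with dominant-negative Ras (limma adjusted p = 2.43e-09, 5.24e-09 and 3.88e-08). HRAS differed from control by 0.36, 0.20 and 0.26 in the same order (limma adjusted p = 0.0773, 0.360 and 0.226), and the labels do not say which Ras gene the vector carries. The array of dominant-negative Ras replicate 3 was the most divergent: 85 genes lay 2-fold or more outside the values of its 2 companions, and 22 was the next highest such number, so the ABCC3 and ABCC4 differences of that group are given with and without it. All 6 epithelial genes with a probe were detected throughout, and 0 of 6 genes of ciliated and secretory airway cells were. In bulk RNA, fewer cells of a type and less RNA per cell cannot be told apart.

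ABCC3 was lower than control in all 3 inhibited groups, and with the MEK inhibitor its probe did not rise above background on any array. ABCC3 exports glucuronide conjugates and bile salts across the basolateral membrane. Its normalized log2 intensity was 6.82, 7.13 and 7.09 in the 3 control arrays. It was 4.33, 4.24 and 4.32 with the MEK inhibitor, where detection p-values of 0.336 to 0.643 put the probe among the negative control beads. All 3 MEK inhibitor arrays thus sat at the floor of the scale and far below every other array. Levels with the ERK inhibitor were 6.54, 6.35 and 6.42, and those with dominant-negative Ras were 5.97, 6.70 and 5.38. None of the 3 inhibited groups overlapped with control, and the dominant-negative Ras arrays were the most scattered, with replicate 3 lowest.

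The deposited intensities behind these values were 169, 207 and 218 in control and 80.6, 78.1 and 85.9 with the MEK inhibitor, each the mean of 21 to 26 beads. ERK inhibitor arrays read 171, 164 and 167, and dominant-negative Ras arrays read 132, 157 and 99.5. On this uncorrected scale ERK inhibitor replicate 1 lay above control replicate 1, so those groups overlapped before normalization and did not after it.

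Group means of ABCC3 were 7.01 ± 0.17 in control, 4.29 ± 0.048 with the MEK inhibitor, 6.44 ± 0.097 with the ERK inhibitor and 6.02 ± 0.66 with dominant-negative Ras (log2, SD, n = 3 each). Because these differences chose the family, they are given as a description with no test. ABCC3 was at least 4.48-fold lower with the MEK inhibitor, a lower bound since no array of that group detected it. The bound holds on the background-corrected scale only, and without that correction the log2 difference was −1.24. The difference was −0.58 ± 0.22 with the ERK inhibitor, or 1.49-fold lower, and −0.996 ± 0.22 with dominant-negative Ras, or 1.99-fold lower (log2, SE from limma). Without dominant-negative Ras replicate 3 the last difference was −0.68, and without replicate 2 it was −1.34. The SE of 0.22 comes from a spread shared by all 4 groups. It understates the uncertainty of differences that involve dominant-negative Ras, whose own SD was 0.66.

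**Figure D1:**
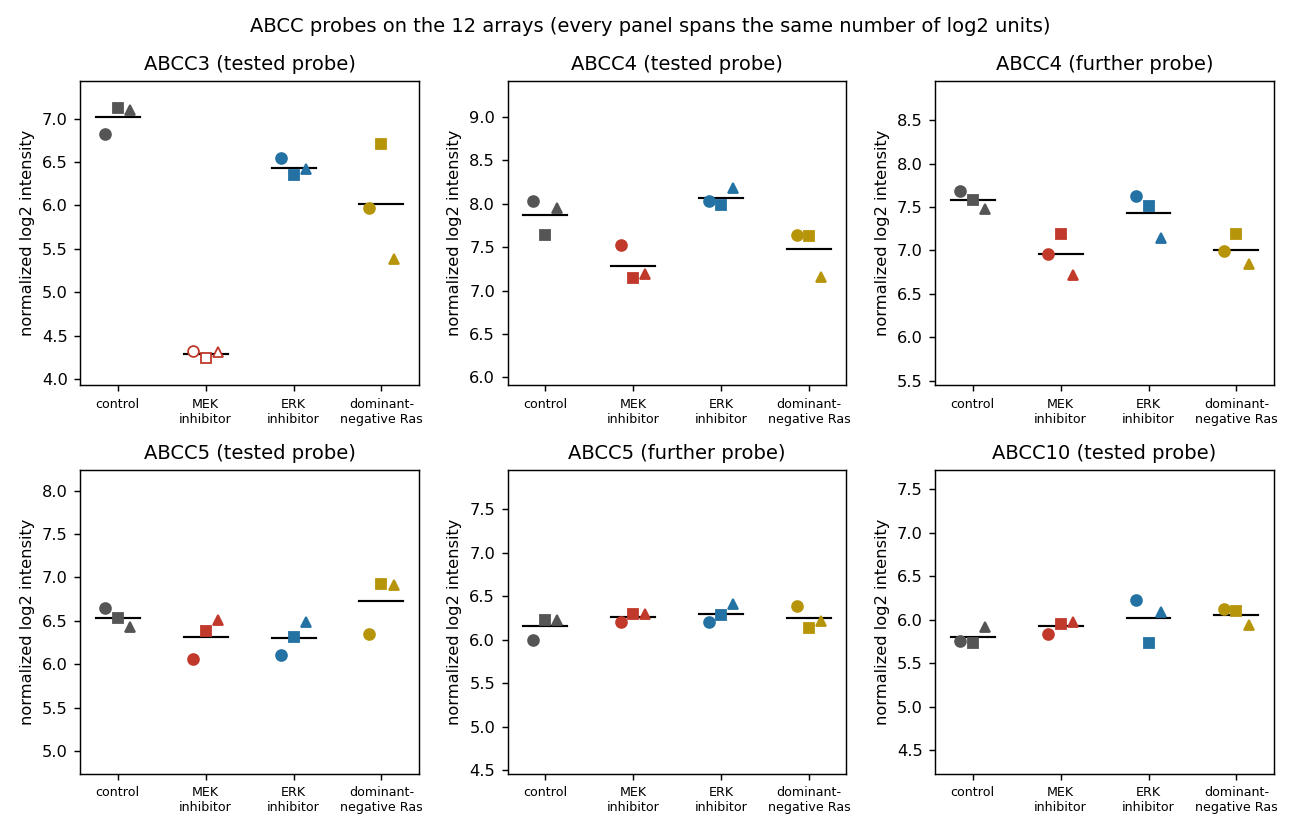
Normalized log2 intensity of each kept ABCC probe on the 12 arrays, in 6 panels that span the same number of log2 units. Circles, squares and triangles are replicates 1, 2 and 3, bars are group means and open symbols are arrays where the probe was not detected; the 3 open ABCC3 symbols of the MEK inhibitor lie between 4.24 and 4.33, while the probes of ABCC5 and ABCC10 vary by less than 1 unit.

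Between the inhibited groups ABCC3 was lowest with the MEK inhibitor. Because the ABCC3 values of these same arrays chose the family, these differences are a description too, with no test. With the MEK inhibitor ABCC3 was at least 3.00-fold lower than with the ERK inhibitor (fitted difference −2.14 ± 0.22), with no overlap of arrays. Dominant-negative Ras cells held at least 2.25-fold more than MEK inhibitor cells (fitted difference 1.73 ± 0.22, and 2.04 without dominant-negative Ras replicate 3), again with no overlap. Both bounds hold on the background-corrected scale only, and without that correction the log2 differences were −0.89 and 0.69. Between dominant-negative Ras and the ERK inhibitor the difference was −0.42, and the arrays overlapped. That difference rests on single arrays: it was −0.10 when replicate 3 of dominant-negative Ras was left out and −0.76 when replicate 2 was. From high to low, the order of ABCC3 was control, ERK inhibitor, dominant-negative Ras and MEK inhibitor, and the arrays of the middle pair overlapped.

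Of the 3 other members tested, 1 passed limma's test against control, ABCC4 with the MEK inhibitor, and it fell. Over all tested genes, 8.86% were called lower and 7.11% higher in that comparison. None of the 3 was called with the ERK inhibitor, where 5.48% of all genes were called lower and 5.92% higher, or with dominant-negative Ras, where the shares were 6.45% and 5.81%. A list of 3 genes gives no share precise enough to be read against these. Before adjustment, ABCC4 with dominant-negative Ras had a limma p of 0.0216. The share of all genes with so low an unadjusted p was not counted, so this value is no result about the family.

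**Figure D2:**
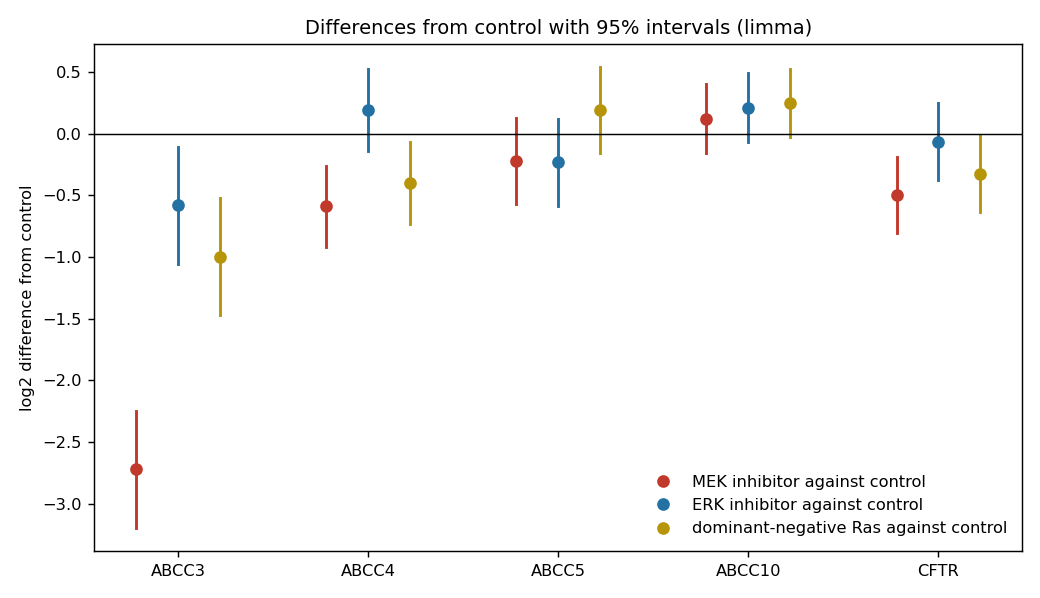
Log2 differences from control of the tested ABCC genes (y axis) in the 3 inhibited groups, as points with 95% intervals from limma. ABCC3 lies below 0 in all 3. ABCC4 and CFTR have intervals wholly below 0 with the MEK inhibitor and with dominant-negative Ras. Of these only those with the MEK inhibitor pass the adjusted test. ABCC5 and ABCC10 have intervals that include 0 throughout. The ABCC3 values chose the family, so its points and intervals are a description and no test.

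ABCC4 exports cyclic nucleotides and prostaglandins. Its tested probe read 8.03, 7.64 and 7.95 in control and 7.53, 7.14 and 7.19 with the MEK inhibitor (log2). Every MEK inhibitor array was below every control array, with a mean difference of −0.59 ± 0.16 (SE), or 1.504-fold lower (limma adjusted p = 0.0169). The 4 alternatives that left out control replicate 1 or 3, or MEK inhibitor replicate 2 or 3, gave differences of −0.51, −0.55, −0.52 and −0.54, and the call was lost in each (limma adjusted p = 0.0834, 0.0642, 0.0825 and 0.0709). ERK inhibitor arrays read 8.03, 7.98 and 8.18, which overlapped with control at a difference of 0.19 (95% interval −0.14 to 0.52, limma adjusted p = 0.469). Dominant-negative Ras arrays read 7.64, 7.63 and 7.15, of which replicate 1 overlapped with the lowest control array, at a difference of −0.40 (95% interval −0.73 to −0.07, limma adjusted p = 0.108). Without dominant-negative Ras replicate 3, the lowest of them, this difference was −0.24 (limma adjusted p = 0.356).

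A further ABCC4 probe was read on the same arrays and was also lowest with the MEK inhibitor, while its highest group was control and that of the tested probe was the ERK inhibitor. It read 7.69, 7.58 and 7.48 in control, 6.96, 7.18 and 6.71 with the MEK inhibitor, 7.63, 7.51 and 7.14 with the ERK inhibitor, and 6.99, 7.19 and 6.85 with dominant-negative Ras. All 3 arrays of the MEK inhibitor and all 3 of dominant-negative Ras lay below every control array. In a limma fit of all 17099 kept probes this probe fell by 0.63 ± 0.15 with the MEK inhibitor (adjusted p = 0.0118) and by 0.57 with dominant-negative Ras (adjusted p = 0.0269). With the ERK inhibitor it differed by −0.15 (limma adjusted p = 0.576), opposite in sign to the tested probe, and neither passed. Averaging both probes gave a dominant-negative Ras difference of −0.49 (limma adjusted p = 0.0222), so this call depends on the choice of probe. Both dominant-negative Ras calls were lost without replicate 3 of that group, at −0.49 for the further probe (limma adjusted p = 0.0858) and −0.36 for the average (limma adjusted p = 0.0768), an alternative chosen after seeing the data.

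Between the 2 drugs ABCC4 was 0.78 lower on the log2 scale with the MEK inhibitor than with the ERK inhibitor, a fold of 1.72 with no overlap (difference −0.78 ± 0.16, limma adjusted p = 0.00437). That was 1 of 3 members other than ABCC3, in a comparison where 10.2% of all genes were called, and ABCC4 passed under all 21 alternatives run. The further probe differed by −0.47 (limma adjusted p = 0.0730). Dominant-negative Ras cells held 1.505-fold less ABCC4 than ERK inhibitor cells (−0.59 ± 0.16, limma adjusted p = 0.0251), with 1 of 3 members called against 10.9% of all genes. This call was lost under 6 of 21 alternatives, among them leaving out any of the 3 ERK inhibitor arrays or dominant-negative Ras replicate 3, without which the difference was −0.43 (limma adjusted p = 0.0989, the highest of the 6). Against the MEK inhibitor, dominant-negative Ras differed by 0.19 (95% interval −0.14 to 0.52, limma adjusted p = 0.557), or by 0.35 without that array (limma adjusted p = 0.178), and 0 of 3 members were called there against 4.4% of all genes.

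Promoter sequence is shown for ABCC4, called lower with the MEK inhibitor, ABCC5, called in no comparison, and ABCC2, not detected and so without a measured response. No promoter region was found for ABCC3, the member with the largest fall. Each line is the 250 bases before the start in RefSeq's GRCh38.p14 annotation, 5′ to 3′ on the gene's own strand, with GGAAG, the core letters of ETS factor sites, in capitals on either strand. TGANTCA, the AP-1 motif, was searched in the same way on both strands; no match of 1 lay on a match of the other, since TGANTCA was not found.
ABCC4 (chr13:95301452-95301701, minus strand): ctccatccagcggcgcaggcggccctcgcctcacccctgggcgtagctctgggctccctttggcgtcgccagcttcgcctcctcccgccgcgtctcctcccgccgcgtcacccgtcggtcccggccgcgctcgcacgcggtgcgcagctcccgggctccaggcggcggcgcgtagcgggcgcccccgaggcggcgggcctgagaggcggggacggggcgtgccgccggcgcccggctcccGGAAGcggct
ABCC5 (chr3:184017885-184018134, minus strand): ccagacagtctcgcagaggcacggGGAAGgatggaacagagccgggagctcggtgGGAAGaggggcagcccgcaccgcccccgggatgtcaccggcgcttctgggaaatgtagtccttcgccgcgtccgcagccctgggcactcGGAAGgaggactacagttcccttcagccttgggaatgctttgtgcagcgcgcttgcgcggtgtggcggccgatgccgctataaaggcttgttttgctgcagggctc
ABCC2 (chr10:99782390-99782639, plus strand): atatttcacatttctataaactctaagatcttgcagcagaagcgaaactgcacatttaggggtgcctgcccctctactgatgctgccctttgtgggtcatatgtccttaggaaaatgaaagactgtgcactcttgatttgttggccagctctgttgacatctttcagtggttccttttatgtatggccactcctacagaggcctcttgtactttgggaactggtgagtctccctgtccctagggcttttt

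GGAAG occurred 1 time upstream of ABCC4 (10 bases from the start), 3 times upstream of ABCC5 and 0 times upstream of ABCC2, and it is found in 65.1% of 35116 such regions. TGANTCA occurred in none of the 3, and is found in 6.57% of all regions. ABCC10 has 2 annotated starts, with 1 and 0 matches to GGAAG and none to TGANTCA. The ABCC4 region is 80.4% G and C, that of ABCC5 64.8% and that of ABCC2 45.6%. RefSeq's table matched 4 of the 6 members, and ABCC1 and ABCC3 are named only.

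ABCC5, like ABCC4, exports cyclic nucleotides and nucleotide drugs, and it was called in none of the 6 comparisons. Its tested probe read 6.64, 6.53 and 6.43 in control, 6.06, 6.39 and 6.50 with the MEK inhibitor, 6.11, 6.32 and 6.48 with the ERK inhibitor, and 6.35, 6.92 and 6.91 with dominant-negative Ras. The arrays of every inhibited group overlapped with control, and dominant-negative Ras replicates 2 and 3 were the highest of all 12. Differences from control were −0.22 (95% interval −0.57 to 0.13, limma adjusted p = 0.407), −0.23 (−0.58 to 0.12, limma adjusted p = 0.398) and 0.19 (−0.16 to 0.54, limma adjusted p = 0.492), in that order of groups. The largest difference between inhibited groups was 0.43 for dominant-negative Ras against the ERK inhibitor (limma adjusted p = 0.112), and without dominant-negative Ras replicate 1 it was 0.61 and passed (limma adjusted p = 0.0157). Without that array the difference from the MEK inhibitor, 0.41 over all arrays, was 0.60 and passed as well (limma adjusted p = 0.0340). A further ABCC5 probe spanned 6.002 to 6.41 over the 12 arrays and differed from control by 0.11, 0.15 and 0.09 (limma adjusted p = 0.598, 0.477 and 0.683). The 2 probes thus had opposite signs with both drugs, neither past the test, and the last of the 3 ABCC5 probes was detected on none of 12 arrays.

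ABCC10, which exports lipophilic drugs such as taxanes, was also called in none of the 6 comparisons. Its probe read 5.75, 5.73 and 5.92 in control, 5.84, 5.96 and 5.98 with the MEK inhibitor, 6.22, 5.73 and 6.09 with the ERK inhibitor, and 6.12, 6.10 and 5.94 with dominant-negative Ras. All 3 dominant-negative Ras arrays lay above every control array, the closest pair being 5.94 and 5.92, and the other groups overlapped with control. The differences of 0.12 (95% interval −0.15 to 0.40), 0.21 (−0.06 to 0.49) and 0.25 (−0.03 to 0.53) did not pass (limma adjusted p = 0.577, 0.318 and 0.227). These 95% intervals reach up to 0.53 and down to −0.15. They set no firm limit on a change, since this dim probe lies near background, where a fold is understated.

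ABCC2, the apical pump for conjugates in liver, kidney and gut, was detected on 0 of 12 arrays. Its probe read 4.16 to 4.44 on the log2 scale with detection p-values of 0.121 to 0.968, and no difference was tested. Over the 12 arrays the ABCC3 probe spanned 2.89 log2 units, the ABCC4 probes 1.04 and 0.97, the ABCC5 probes 0.87 and 0.41, and the ABCC10 probe 0.49.

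Outside the multidrug members, 8 further ABCC genes had 11 probes, and CFTR, the chloride channel of airway epithelium that belongs to this subfamily, was the one detected in a group. CFTR read 9.96, 9.43 and 9.96 in control and 9.31, 9.21 and 9.34 with the MEK inhibitor. It fell by 0.49 ± 0.15 (limma adjusted p = 0.0302), with no overlap, and the call was lost under 6 of 21 alternatives, 5 of which left out a single control or MEK inhibitor array. ERK inhibitor arrays read 9.95, 9.60 and 9.60, at a difference of −0.06 (limma adjusted p = 0.826), and dominant-negative Ras arrays read 9.44, 9.46 and 9.48, at −0.32 (limma adjusted p = 0.166). Between the drugs the difference was −0.43 (limma adjusted p = 0.0759).

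Of 20 tested ABC transporter genes of the other subfamilies, 2 fell and 1 rose with the MEK inhibitor, 1 fell and 3 rose with the ERK inhibitor, and 1 fell and 1 rose with dominant-negative Ras. Over all genes 8.86% were called lower and 7.11% higher, 5.48% and 5.92%, and 6.45% and 5.81%, in the same order. Counts this small give no share precise enough to be read against these. Median differences of the 20 genes were −0.02, −0.04 and 0.00, beside 0.01, −0.01 and 0.01 for all genes. ABCG2, the breast cancer resistance protein and a drug pump itself, rose by 0.80 ± 0.17 with the MEK inhibitor (limma adjusted p = 0.00415) and by 0.56 with the ERK inhibitor (limma adjusted p = 0.0427, called under 11 of 21 alternatives). With dominant-negative Ras it differed by 0.45 (limma adjusted p = 0.0953). ABCB9, a lysosomal peptide transporter, fell by 0.52 with the MEK inhibitor (limma adjusted p = 0.00430). ABCA1, the cholesterol exporter, fell by 0.82 with the ERK inhibitor (limma adjusted p = 0.00617, called under 19 of 20 alternatives). It was detected on 1 of 3 ERK inhibitor arrays, so its level there lies near background. TAP1, which carries peptides to MHC class I, rose by 0.71 with the ERK inhibitor (limma adjusted p = 0.00234).

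**Figure D3:**
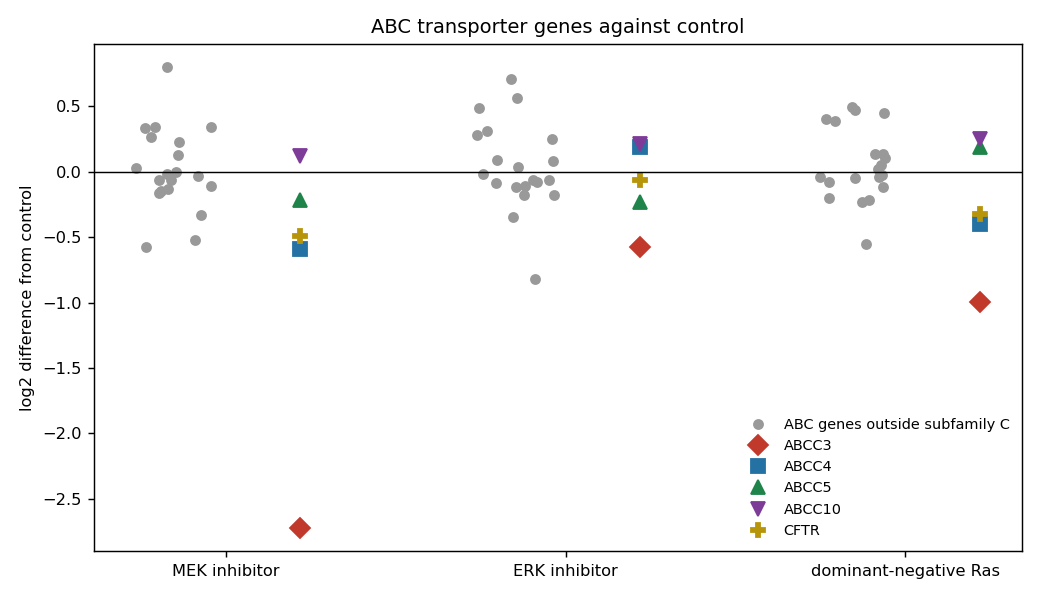
Log2 difference from control (y axis) of 20 tested ABC genes of other subfamilies (grey points, spread sideways only for view) and of the 5 tested ABCC genes (coloured symbols) in each inhibited group. With the MEK inhibitor the grey points lie between −0.58 and 0.80, and ABCC3 lies at a fitted −2.72, where no array detected it and the bound is −2.16; its values chose the family and are no test.

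Genes that make or move ABCC cargo were counted by list. Beside each list stand the shares of all genes called: 8.86% lower and 7.11% higher with the MEK inhibitor, 5.48% and 5.92% with the ERK inhibitor. With dominant-negative Ras they were 6.45% and 5.81%. Small counts from short lists, here and in the next paragraphs, give no share precise enough to be read against these. Of 19 tested genes of glutathione synthesis and glutathione transfer, 2 fell and 1 rose with the MEK inhibitor, 2 fell and 1 rose with the ERK inhibitor, and 0 fell and 2 rose with dominant-negative Ras. Their medians were −0.05, −0.15 and 0.16. SLC3A2, the heavy chain of the cystine importer that feeds glutathione synthesis, rose in all 3 (0.95, 0.60 and 0.59, limma adjusted p = 8.45e-05, 0.00585 and 0.00592), the last not under median scaling. GCLM, a subunit of the enzyme that starts glutathione synthesis, rose by 0.73 with dominant-negative Ras (limma adjusted p = 0.00544, lost under median scaling). GSR, which regenerates glutathione, fell by 0.54 with the MEK inhibitor (limma adjusted p = 0.0236, called under 17 of 21 alternatives).

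Of 7 tested genes of glucuronide and sulfate conjugation, 1 fell and 3 rose with the MEK inhibitor, 1 fell and 1 rose with the ERK inhibitor, and 1 fell and 3 rose with dominant-negative Ras, with medians of 0.38, 0.29 and 0.25. SULT2B1, which adds sulfate to cholesterol and other sterols, fell in all 3 groups, with differences of −1.63, −1.03 and −1.58 (limma adjusted p = 2.59e-06, 0.000475 and 9.13e-06). PAPSS2, which makes the sulfate donor, rose by 1.40 with the MEK inhibitor (limma adjusted p = 0.000884) and by 1.08 with dominant-negative Ras (limma adjusted p = 0.00827). The transferase SULT2B1 and the donor enzyme PAPSS2 thus moved in opposite directions in these groups.

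Of 18 organic anion uptake genes on the array, 3 were tested, and all 3 fell with the MEK inhibitor, where 8.86% of all genes were called lower. A list of 3 genes gives no share precise enough to be read against this. SLCO2A1 was detected on 0 of 3 MEK inhibitor arrays, so it passed the filter only through groups where it was higher, which favours a fall. SLCO4A1, a carrier of thyroid hormones and other anions, fell by 1.48 ± 0.17 (limma adjusted p = 2.50e-05). SLCO2A1, the prostaglandin importer, was at least 2.28-fold lower (limma adjusted p = 0.000117), and SLCO3A1 fell by 0.66 (limma adjusted p = 0.0130, called under 19 of 21 alternatives). With the ERK inhibitor 0 of the 3 were called, and with dominant-negative Ras SLCO2A1 fell by 0.77 (limma adjusted p = 0.0494, called under 2 of 20 alternatives). The list's median was −1.48 with the MEK inhibitor, or −1.19 with SLCO2A1 at its bound, −0.05 with the ERK inhibitor and −0.29 with dominant-negative Ras. Between the drugs all 3 were lower with the MEK inhibitor in limma's test, where 10.2% of all genes were called in either direction.

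Among 13 tested genes that make or break down leukotrienes, prostaglandins and cyclic AMP, the signals that ABCC1, ABCC4 and ABCC5 export, 1 fell and 3 rose with the MEK inhibitor, and 1 fell and 1 rose in each other group. Their medians were 0.19, 0.15 and 0.17. PDE4A, which degrades cyclic AMP, rose by 1.24 with the MEK inhibitor (limma adjusted p = 0.00873, detected on 2 of 3 control arrays). ALOX5AP, needed for leukotriene synthesis, rose by 1.08 with the ERK inhibitor (limma adjusted p = 0.00398).

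Known regulators of ABCC genes include the xenobiotic receptors and the NRF2 system, and 10 such genes were tested. MAFF, a small MAF protein that pairs with NRF2, fell in all 3 inhibited groups, with differences of −2.04 with the MEK inhibitor, −0.99 with the ERK inhibitor and −1.41 with dominant-negative Ras (limma adjusted p = 6.44e-07, 0.00130 and 6.18e-05). NFE2L2, which encodes NRF2, rose by 0.41 with the MEK inhibitor and by 0.50 with dominant-negative Ras (limma adjusted p = 0.0270 and 0.0118), neither under median scaling. In all, 2 fell and 1 rose with the MEK inhibitor, 1 fell and 0 rose with the ERK inhibitor, and 1 fell and 2 rose with dominant-negative Ras, with medians of 0.15, −0.05 and 0.13. Of 5 tested genes that anchor ABCC proteins in the membrane, 0 fell and 2 rose with the MEK inhibitor, 1 fell and 1 rose with the ERK inhibitor, and 0 fell and 2 rose with dominant-negative Ras, with medians of −0.08, 0.00 and 0.05. PDZK1, a scaffold that binds the tails of apical transporters, rose by 1.98, 1.31 and 1.02 in the 3 groups (limma adjusted p = 2.82e-05, 0.00202 and 0.00995).

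Of 9 tested transcripts known to report MEK and ERK activity, 9 fell with the MEK inhibitor, 7 with the ERK inhibitor and 9 with dominant-negative Ras. Over all genes 8.86%, 5.48% and 6.45% were called lower. The medians of the 9 were −2.06, −1.48 and −1.67. All 9 were detected on every control array, but 4 on every MEK inhibitor array, 6 with the ERK inhibitor and 5 with dominant-negative Ras. Some thus passed the filter through groups where they were higher, which favours a fall. Between the drugs 5 of the 9 were called lower with the MEK inhibitor and 0 higher, where 705 of all 10532 genes were called lower and 371 higher. The median of the 9 between the drugs was −1.22, or −0.57 with undetected genes at their bounds. Whether any ABCC gene follows these transcripts was not tested.

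Markers of cell type moved beside ABCC3 as well. The summed level of 6 epithelial genes, on the linear normalized scale, ran from 13014 to 14412 in control, from 10202 to 11089.9 with the MEK inhibitor, from 13426.5 to 14247.5 with the ERK inhibitor and from 11341 to 13061 with dominant-negative Ras. KRT18, a simple epithelial keratin, fell in all 3 inhibited groups, with differences of −0.97, −0.60 and −1.02 (limma adjusted p = 0.000193, 0.0122 and 0.000206). The KRT18 call with the ERK inhibitor was lost under median scaling and without ERK inhibitor replicate 3. The list did not move as one: 3 fell and 0 rose with the MEK inhibitor, 1 fell and 1 rose with the ERK inhibitor, and 2 fell and 1 rose with dominant-negative Ras. The genes that rose were CDH1, which encodes E-cadherin, by 0.64 with the ERK inhibitor (limma adjusted p = 0.00472), and the basal keratin KRT5, by 0.63 with dominant-negative Ras (limma adjusted p = 0.0296, called under 13 of 21 alternatives and not without replicate 3). Of 8 fibroblast genes, COL1A1 was detected on all arrays of every group and LUM on all MEK inhibitor arrays. DCN, PDGFRA and COL3A1 were detected on no array of any group. The sum of the 8 ran from 176 to 194 in control, 239 to 274 with the MEK inhibitor, 217 to 229 with the ERK inhibitor and 194 to 247 with dominant-negative Ras. Of 7 leukocyte genes 2 were detected on all arrays of each group, and PTPRC was detected on no array. The sums of the 7 were 332 to 400.4, 369 to 414, 333 to 418 and 337 to 395 in the same order. Of 6 endothelial genes 0 were detected on all arrays of any group.

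ABCC3 is also a liver gene, and of 5 hepatocyte genes ALB and SERPINA1 were detected in every group while APOA1, TTR and CYP3A4 were on no array. Their sum ran from 282 to 327 in control, 132 to 170.3 with the MEK inhibitor, 219 to 295 with the ERK inhibitor and 145 to 200.3 with dominant-negative Ras. SERPINA1, a protease inhibitor that airway cells also make, fell by 2.32 with the MEK inhibitor (limma adjusted p = 1.56e-05) and by 1.69 with dominant-negative Ras (limma adjusted p = 0.000605). ALB, which encodes albumin, differed by 0.22 with the MEK inhibitor (limma adjusted p = 0.300) and rose by 0.57 with dominant-negative Ras (limma adjusted p = 0.0106, not called under median scaling or without replicate 2), so the lower sums are those of SERPINA1. Dominant-negative Ras replicate 3 was included in these ranges. The part of these marker changes in the ABCC3 values was not tested.

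Likeness to a member was measured as the root mean square difference of 12 log2 values, each gene less its own mean, among all tested genes, and is a description with no test. Nearest to ABCC3 were UBASH3B (0.226), MAOA (0.314), SPRED1 (0.320), EPHA2 (0.327) and CXCL8 (0.337), against a median of 1.07 over all genes. UBASH3B, a protein tyrosine phosphatase, differed from control by −2.47, −0.49 and −1.03 (MEK inhibitor first, dominant-negative Ras last), beside −2.72, −0.58 and −0.996 for ABCC3. MAOA, which oxidises amine transmitters, differed by −2.63, −0.35 and −1.28, and SPRED1, a feedback inhibitor of Ras signalling, by −2.92, −0.88 and −1.65. Within the dominant-negative Ras group all 5, like ABCC3, were highest on replicate 2. The values of these same arrays chose the 5 genes, so this likeness is part of the choice and no separate result.

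**Figure D4:**
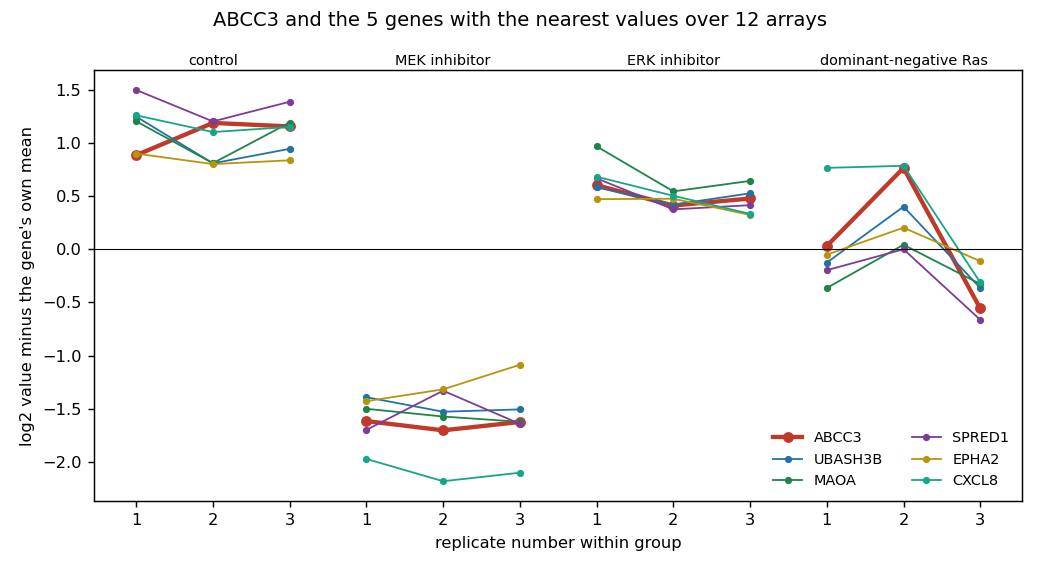
Log2 values of ABCC3 and its 5 nearest genes on the 12 arrays, each gene less its own mean (y axis), by replicate number within group (x axis). Lines join arrays of 1 group for view only. By group mean all 6 genes are highest in control and lowest with the MEK inhibitor. Dominant-negative Ras replicate 2 is the highest array of its group for all 6. The 5 genes were chosen for nearness on these same arrays.

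The nearest genes to ABCC4 were KRT7, a simple epithelial keratin (0.120), ELOVL4, a fatty acid elongase (0.141), and RNF213, a ubiquitin ligase (0.143), against a median of 0.408. KRT7 differed from control by −0.55, 0.22 and −0.23 in the same order of groups, beside −0.59, 0.19 and −0.40 for ABCC4. Nearest to ABCC5 were UTP20, MYOF and EEIG1 (0.110, 0.122 and 0.136, against a median of 0.323). Nearest to ABCC10 were TMEM14A, TRIM3 and STXBP5 (0.0785, 0.0864 and 0.0907, against a median of 0.257). ABCC5 and ABCC10 themselves varied little, with SDs over the 12 arrays of 0.267 and 0.164, so nearness to them is mostly nearness to a flat line, while the SD of ABCC3 was 1.10 and that of ABCC4 0.369.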

How the data were processed

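Total RNA was made into biotin-labelled cRNA for Illumina arrays, per the labels' protocols. For each probe and array the deposited table gives the mean intensity over its beads (not normalized), the standard error, the bead count and a detection p-value against negative controls. The submitters' processing notes name GenomeStudio, with no version given in the sources used here. A second deposited table holds the authors' processed intensity values for 47317 of the 47322 probes, used as an alternative.

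Intensities were background-corrected from the detection p-values, quantile normalized with an offset of 16 and put on the log2 scale with limma's neqc (limma 3.58.1, R 4.3.3). Quantile normalization removes any change that most genes share. The platform annotation names 30112 probes with 1 symbol, 8 with several and 17202 with none, and symbols were updated by gene ID. Probes were kept where some group had a detection p below 0.01 on each of its 3 arrays (17099, of which 13885 are named), and the probe with the highest mean stood for each of 10532 genes. limma's lmFit and eBayes compared 4 group means over all 12 arrays, with Benjamini-Hochberg adjustment over all genes and a threshold of 0.05. A further kept probe of a member was tested in a fit of all kept probes. Where no array of a group detected a probe, a lower bound of the fold on the background-corrected scale is given. The bound takes in each array the probe's own value or the lowest detected value, whichever is higher. Since the arrays of a group come from 3 experiments on 1 cell line, the p-values cover the spread between those experiments. The fit was tested on simulated data.

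ABCC3, whose values chose the family, is described with no test in any comparison. The members, gene lists and alternatives were chosen with earlier results of these data known. Named genes were all members, detected relatives, EGR1 and HRAS, up to 4 called genes of each list with the smallest adjusted p in a comparison with control, and the 3 (for ABCC3, 5) genes nearest to each member; ABCG2 with dominant-negative Ras is given besides for its values. The file headers give no slide or scan batch. ABCC1 and ABCC6 were not analysed here.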

Additional observations from a re-analysis of the deposited data

Results flagged for a closer look

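In 2 cases a member other than ABCC3 differed between 2 inhibited groups in limma's test. ABCC4 differed by −0.78 between the MEK inhibitor and the ERK inhibitor, with no overlap of arrays. It differed by −0.59 between dominant-negative Ras and the ERK inhibitor, a call that was lost without dominant-negative Ras replicate 3 or any single ERK inhibitor array. ABCC3 differed by −2.14 between the MEK inhibitor and the ERK inhibitor and by 1.73 between dominant-negative Ras and the MEK inhibitor; its values chose the family, so these are given as values with no test.

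Among 12 ABCC probes that did not enter the fit, 1 of 144 values passed the detection threshold of 0.01, a log2 value of 4.92 for ABCC11 in dominant-negative Ras replicate 3, with a detection p of 0.00649. The other ABCC11 probes were not detected on that array, and the threshold alone passes about that share of values drawn from negative controls.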

How the results depend on the processing

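For the 3 tested members other than ABCC3, 18 differences were recomputed under the 21 alternatives, which gave 378 values. Of these 365 stayed on the same side of the threshold, 10 lost a call and 3 gained one. No called difference changed sign, and 8 uncalled values did. The 6 ABCC3 differences, which carry no test, kept their sign in all 120 values.

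Without background correction, ABCC3 differed from control by −1.24 with the MEK inhibitor and −0.55 with dominant-negative Ras, by −0.89 between the drugs and by 0.69 for dominant-negative Ras over the MEK drug. ABCC3 was outside the fit of probes detected on all arrays, since that filter removes it. The number of members other than ABCC3 called ranged from 0 to 1 for the MEK inhibitor against control when arrays were left out in turn, and was 1 for dominant-negative Ras against control with the mean of all kept probes. For dominant-negative Ras it ranged from 0 to 1 when set against MEK inhibitor arrays and from 0 to 2 against ERK inhibitor arrays, where it was also 0 without a filter and 0 in a fit of only the 2 groups compared (ABCC4, limma adjusted p = 0.0533 and 0.0609).

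Leaving out 1 array gave 1035 to 2023 called genes for the MEK inhibitor against control (1682 over all arrays), 634 to 1547 for the ERK inhibitor (1201) and 745 to 1510 for dominant-negative Ras (1291). Between inhibited groups it gave 575 to 1421 for the MEK against the ERK inhibitor (1076), and for dominant-negative Ras 140 to 720 when compared with MEK inhibitor arrays (463) and 634 to 1459 with ERK inhibitor arrays (1145). Scaling arrays to 1 median gave 747 for the ERK inhibitor, 718 for dominant-negative Ras and 275 between dominant-negative Ras and the MEK inhibitor. That last count was 295 without a filter. A fit of only the 2 groups compared gave 791 for dominant-negative Ras against control, and 147 and 495 for it against the MEK and ERK drugs. The cause of these moves was not tested.

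Median scaling left a median difference over the tested genes of −0.12 under MEK inhibition, 0.12 with the ERK inhibitor and −0.10 with dominant-negative Ras, each against control. It was −0.24 for the MEK over the ERK drug, and 0.02 and −0.23 for dominant-negative Ras over the same 2 drugs. The share of calls that were higher went with it, from 44.5% to 22.4%, 52.0% to 84.3%, 47.4% to 23.1%, 34.5% to 4.41%, 56.6% to 66.9% and 44.0% to 4.42% in that order. The named genes of the other lists that passed against control kept their sign under all alternatives run.

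The replicate numbers were not shown to pair the arrays across all 4 groups. Deviations of same-numbered arrays from their group means correlated at −0.19 to 0.33, over 0.1 in 9 of 18 pairs. Among control and the 2 drug groups these correlations ran from 0.03 to 0.33, and in pairs with dominant-negative Ras from −0.19 to 0.14. Arrays with different numbers correlated at −0.27 to 0.23. A fit with the replicate block gave −0.59 for ABCC4 with the MEK inhibitor (limma adjusted p = 0.0133), 1809 called genes in that comparison, and no change of any member's call. A block by slide could not be run because the headers name no slide. Dim probes such as those of ABCC5 and ABCC10, and that of ABCC3 in the inhibited groups, lie near background, where a fold is understated.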
